A study of Mus musculus with 6 samples.

Results

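The TGF-β, BMP and SMAD signalling genes were examined in TKPTS cells, a mouse proximal tubule line in culture. The members were the genes whose symbol in the deposited table matched a fixed list of 47 ligands, extracellular modulators, receptors, SMAD proteins, SMAD regulators and target genes. All 47 were among the 29595 genes of the table, and 46 passed the filter on low counts. The Hnf3a group held 3 libraries from cells transfected with pcDNA3.1-Hnf3a-Flag, a plasmid for the forkhead transcription factor HNF3α (gene symbol Foxa1). The pcDNA group held 3 libraries from cells that received pcDNA3.1-Flag without an insert, and all cells were harvested 24 h after transfection. The labels give neither the share of cells that took them up nor any TGF-β1 treatment, and they do not say whether the libraries came from separate cultures, so p-values measure only the spread between these samples.

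TGF-β and BMP ligands are secreted dimers that assemble pairs of type I and type II receptor kinases at the cell surface. The TGF-β and activin arm phosphorylates SMAD2 and SMAD3, the BMP arm phosphorylates SMAD1, SMAD5 and SMAD9, and both use SMAD4 as the shared partner on DNA. In the kidney, TGF-β is best known for driving matrix production during fibrosis, while BMP7 is known for opposing it.

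The total estimated count lay between 60473818 and 71154667 per library. Foxa1 stood at 334, 296 and 284 FPKM (fragments per kilobase of transcript, scaled to library size) in Hnf3a replicates 1, 2 and 3, and at 9.49, 9.54 and 9.96 FPKM in the pcDNA libraries, which matches the labels. Epithelial markers (Cdh1, Epcam, Krt8 and 5 others) summed to between 1020 and 1090 FPKM in every library. The defining proximal tubule markers were nearly absent, with Lrp2 and Cubn at most 0.0534 FPKM, although 6 or 7 of the 9 measured were above the detection floor. Hnf3a replicates 2 and 3 stood apart, since 12 and 11 of 12 fibroblast markers were above that floor of 12 counts there, against 4 in Hnf3a replicate 1 and 1 to 3 in the pcDNA libraries. Their fibroblast markers summed to 8.73 and 10.5 FPKM, against 0.167 to 0.281 FPKM in the other 4 libraries. All 12 macrophage markers were above the floor in the same pair of libraries and 3 to 5 in the others, with sums of 18.3 and 20.2 FPKM against 12.6 to 14.5. In bulk RNA, fewer cells of a type and less RNA per cell cannot be told apart.

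Of the 46 members tested, 7 differed between the groups at an adjusted p under 0.05 (edgeR quasi-likelihood test, Benjamini-Hochberg over all genes), where 3.17% of all 17824 genes tested did. Ltbp2, Tgfbr3, Inhba, Id3, Skil and Ccn1 were lower in the Hnf3a group, 6 genes against a background of 2.13% called lower. Id2 alone was higher, against a background of 1.04%. None of the 8 SMAD genes passed the threshold. Ltbp2 fell by 42.0% and Ccn1, with the smallest change, fell by 9.77%. The median log2 fold change of the 46 members was 0.0048, beside 0.00085 over all genes tested. An unadjusted p under 0.05 was reached by 11 members (13.5% of all genes), and the libraries of the groups did not overlap in CPM (counts scaled to library size) for 14 members (19.1% of all genes). The calls depended on the libraries used: leaving out 1 library at a time left between 3 and 6 members past the threshold. Without Hnf3a replicates 2 and 3, an alternative chosen after seeing the data, only 1 Hnf3a library was left. The log2 fold change was then -0.82 for Ltbp2 and 0.28 for Fn1.

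**Figure D1:**
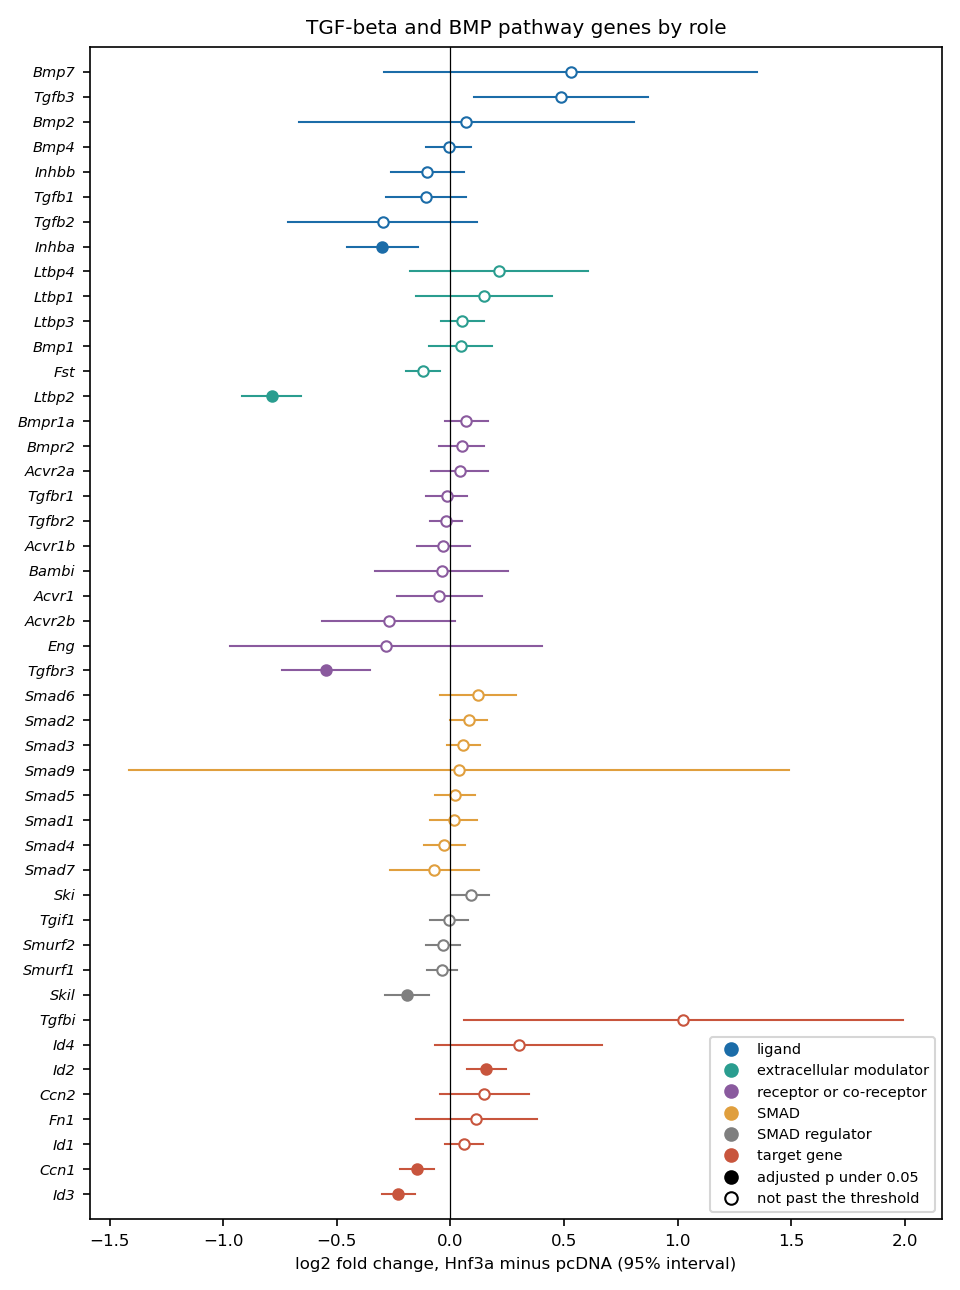
Log2 fold change (Hnf3a minus pcDNA, x axis) of the 46 tested members, coloured by role, with bars for the 95% interval and filled circles for an adjusted p under 0.05. The 7 filled circles lie at -0.79 (Ltbp2), -0.55 (Tgfbr3), -0.30 (Inhba), -0.23 (Id3), -0.19 (Skil), -0.15 (Ccn1) and 0.16 (Id2), and the SMAD genes lie between -0.070 and 0.12, with the widest interval for Smad9.

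Upstream sequence bears on a comparison in which a DNA-binding factor was raised, so the promoters of the 7 members were read from RefSeq on GRCm38.p6 (250 bases before to 50 after the start), where 5 of the 7 were listed (Inhba, Ltbp2, Id2, Id3 and Ccn1). The stretches before the start that touch no annotated exon are shown for Inhba at chr13:16011601-16011850 (plus strand), for Id2 at chr12:25096254-25096342 (minus strand) and for Ccn1 at chr3:145649986-145650235 (minus strand). The Id2 stretch precedes the RefSeq start used here but lies inside the annotated span of the gene (25093799 to 25097140). Capitals mark GGCGCC, a motif known from SMAD binding.
Inhba: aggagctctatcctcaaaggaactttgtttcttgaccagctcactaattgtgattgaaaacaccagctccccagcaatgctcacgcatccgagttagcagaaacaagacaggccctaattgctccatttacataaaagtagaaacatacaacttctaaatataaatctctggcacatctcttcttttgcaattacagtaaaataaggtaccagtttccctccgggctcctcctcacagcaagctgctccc
Id2: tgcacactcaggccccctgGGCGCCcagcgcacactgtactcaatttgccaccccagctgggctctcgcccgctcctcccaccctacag
Ccn1: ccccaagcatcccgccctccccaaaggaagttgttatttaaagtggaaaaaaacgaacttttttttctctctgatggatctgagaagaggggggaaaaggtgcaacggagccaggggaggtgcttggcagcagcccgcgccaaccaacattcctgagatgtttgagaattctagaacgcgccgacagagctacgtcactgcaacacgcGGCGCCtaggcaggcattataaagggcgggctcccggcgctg
The forkhead motifs TGTTTAC and TATTTAC were searched on both strands and were found in 0 of the 5 promoters, and in 3.65% and 3.04% of 32851 promoters of the same length. CAGACA, known from SMAD3 and SMAD4 binding, was found in 0 of the 5 and in 6913 of the 32851 promoters. GGCGCC was found in 2 of the 5, Id2 and Ccn1, and in 11.9% of all promoters. The Id2 match lay inside the annotated span of the gene. A match is a description of the letters, and an absent match says nothing about binding elsewhere.

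Among the ligands, 1 of 8 differed. Inhba codes for the βA subunit of activin A, a ligand of the TGF-β arm. It stood at 9.69, 9.37 and 8.51 FPKM in Hnf3a replicates 1, 2 and 3 and at 12.5, 10.7 and 10.6 FPKM in pcDNA replicates 1, 2 and 3. All 3 Hnf3a libraries were below all pcDNA libraries, with the widest gap to pcDNA replicate 1. The fitted log2 difference was -0.30 ± 0.070 (SE), a fall of 18.7% (edgeR adjusted p 0.0488). This call was marginal, since the adjusted p was 0.153, 0.119, 0.121 and 0.0752 without Hnf3a replicate 2, Hnf3a replicate 3, pcDNA replicate 1 and pcDNA replicate 2. The gene lies on chromosome 13, from 16011851 to 16031621 in GRCm38, and no other annotated exon overlaps its exons.

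Bmp4, a BMP ligand, was the most abundant ligand, at 27.0, 29.0 and 28.3 FPKM in the Hnf3a libraries and 29.6, 28.0 and 26.7 FPKM in the pcDNA libraries. The ranges overlapped almost fully, and the log2 fold change was -0.0085 (95% interval -0.11 to 0.089, edgeR adjusted p 0.973). Tgfb1, the ligand most tied to kidney fibrosis, was at 3.56, 3.16 and 2.87 FPKM against 3.36, 3.57 and 3.34 FPKM, with the groups overlapping. Its log2 fold change was -0.11 (95% interval -0.28 to 0.070, edgeR adjusted p 0.658). Tgfb3 was at 1.05, 0.862 and 1.25 FPKM in the Hnf3a libraries against 0.631, 0.740 and 0.871 FPKM, and overlapped only through Hnf3a replicate 2 and pcDNA replicate 3. Its log2 fold change of 0.49 had an unadjusted p of 0.0165 and an edgeR adjusted p of 0.217. Exons of Gm37804 and Gm48008 overlap Tgfb3 on the other strand, 1 of 15 members with such an overlap on either strand; use of strand in the counting was not stated. Inhbb, which codes for the βB activin subunit, averaged 3.57 ± 0.0681 FPKM (3 libraries, SD) against 3.81 ± 0.295 FPKM (3 libraries, SD). The remaining ligands were low: Tgfb2 was at 0.518 FPKM, Bmp2 at 0.188 FPKM and Bmp7 at 0.0807 FPKM on average in the pcDNA group, with edgeR adjusted p of 0.578, 0.968 and 0.63.

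The extracellular modulators control how much ligand reaches a receptor. Latent TGF-β binding proteins tether the ligand to matrix, but LTBP2 is the family member known not to bind latent TGF-β and to sit on fibrillin fibres. Ltbp2 showed the largest difference of the members past the threshold. It stood at 2.26, 2.24 and 2.46 FPKM in Hnf3a replicates 1, 2 and 3 and at 3.98, 3.82 and 4.15 FPKM in the pcDNA replicates, with a wide gap between the groups. This gave a log2 fold change of -0.79 ± 0.060 (SE, edgeR adjusted p 3.7e-06), and the call held in 16 of 16 alternatives, with an adjusted p of at most 0.00514. Ltbp2 maps to chromosome 12 (84783212 to 84876532, minus strand), with 36 exons in the longest transcript. Exons of D030025P21Rik overlap it on the other strand, with 100, 95 and 116 counts against 131, 155 and 184, where Ltbp2 had 1344 to 1484 counts against 2202 to 2479.

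The other binding proteins did not pass the threshold. Ltbp3, the most abundant of the family, averaged 5.39 ± 0.160 FPKM (3 libraries, SD) in the Hnf3a group and 5.16 ± 0.134 FPKM (3 libraries, SD) in the pcDNA group (log2 fold change 0.053, 95% interval -0.042 to 0.15). Ltbp1 and Ltbp4 had log2 fold changes of 0.15 and 0.21, with edgeR adjusted p of 0.743 and 0.703. Within each library, the ratio of Ltbp2 to Ltbp3 FPKM was 0.405, 0.421 and 0.468 in the Hnf3a group and 0.785, 0.748 and 0.782 in the pcDNA group. This ratio needs no scaling between libraries.

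Fst codes for follistatin, which binds and blocks activin. It was the most abundant modulator, at 109.9, 113 and 105 FPKM in the Hnf3a libraries and 123, 117 and 114 FPKM in the pcDNA libraries. The groups did not overlap, yet the log2 fold change of -0.12 had an edgeR adjusted p of 0.0909 (unadjusted p 0.00397), and the DESeq2 Wald test gave an adjusted p of 0.0215. Within a library, the ratio of Fst to Inhba FPKM was 11.3, 12.1 and 12.4 in the Hnf3a group. In the pcDNA group it was 9.82, 11.0 and 10.8, below all 3 Hnf3a libraries. The groups did not overlap for Inhba alone either. Bmp1, a protease that cleaves procollagens and the BMP antagonist chordin, averaged 2.95 and 2.84 FPKM (edgeR adjusted p 0.862). Grem1, a secreted BMP antagonist, had at most 7 counts in any library and was not tested.

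**Figure D2:**
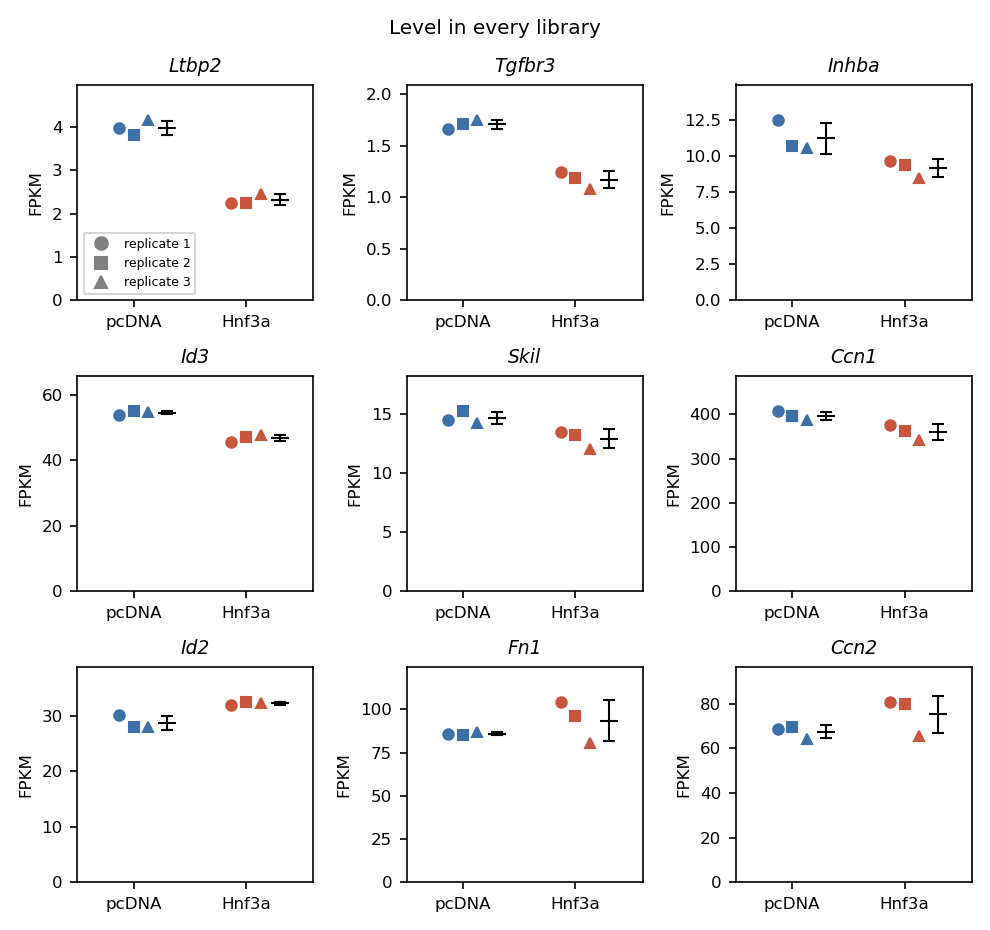
FPKM (y axis, from 0) of the 7 members past the threshold and of Fn1 and Ccn2 in each library, with replicate numbers as symbols and black bars for the mean and SD of 3 libraries. The groups are apart for the 7 genes, whereas Hnf3a replicate 3 lies below the pcDNA libraries for Fn1 (80.7 FPKM) and within their range for Ccn2 (65.7 FPKM).

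Of the 11 receptors and co-receptors, 1 differed. Tgfbr3 codes for betaglycan, a co-receptor that presents TGF-β ligands, TGF-β2 above all, to the signalling receptors and also binds inhibin. It was at 1.24, 1.19 and 1.08 FPKM in the Hnf3a libraries and at 1.67, 1.71 and 1.74 FPKM in the pcDNA libraries. Every Hnf3a library was lower than every pcDNA library, and the log2 fold change was -0.55 ± 0.090 (SE), a fall of 31.7% (edgeR adjusted p 0.0033). The adjusted p was under 0.05 in 14 of 16 alternatives and was 0.116 without Hnf3a replicates 2 and 3 and 0.0648 in limma on log2(FPKM + 0.1). The gene maps to chromosome 5 (107106570 to 107289629, minus strand). Gm43422, whose exons overlap it on the same strand, had at most 2 counts in any library.

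None of the kinase receptors passed the threshold. Tgfbr2, the type II receptor of TGF-β and the most abundant receptor, was at 37.2, 36.6 and 34.6 FPKM in the Hnf3a libraries and at 36.3, 36.2 and 36.7 FPKM in the pcDNA libraries. Its log2 fold change was -0.018 (95% interval -0.090 to 0.053). Tgfbr1, the type I receptor, had a log2 fold change of -0.017 (95% interval -0.11 to 0.074). The ratio of Tgfbr3 to Tgfbr2 FPKM was 0.0334, 0.0326 and 0.0313 in the Hnf3a libraries against 0.0459, 0.0473 and 0.0476 in the pcDNA libraries. Among the BMP receptors, Bmpr1a averaged 12.68 against 12.01 FPKM (log2 fold change 0.070, 95% interval -0.026 to 0.17) and Bmpr2 averaged 2.69 against 2.59 FPKM (0.050, -0.049 to 0.15). For the receptors with an Acvr symbol, the log2 fold changes were -0.049 for Acvr1, -0.032 for Acvr1b, 0.041 for Acvr2a and -0.27 for Acvr2b, with edgeR adjusted p between 0.423 and 0.894. For Bambi, a pseudoreceptor without a kinase domain, the log2 fold change was -0.039 (edgeR adjusted p 0.952). Eng, an endothelial co-receptor, was at no more than 0.257 FPKM in any library (edgeR adjusted p 0.8).

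The median absolute log2 fold change was 0.088 over all genes tested, 0.037 for the SMAD regulators and 0.049 for the receptors. It was 0.20 for the ligands, 0.13 for the modulators and 0.15 for the target genes. For the 8 SMAD genes it was 0.047, so a low value was shared with the regulators and receptors. Smad4 was the most abundant by its mean in the pcDNA group, at 25.6, 24.1 and 22.8 FPKM in the Hnf3a libraries and 24.2, 24.6 and 24.6 FPKM in the pcDNA libraries, so that the Hnf3a libraries lay on both sides of the pcDNA libraries. Its log2 fold change was -0.027 (95% interval -0.12 to 0.063). Smad3 averaged 25.4 ± 0.463 FPKM (3 libraries, SD) against 24.3 ± 0.623 FPKM (3 libraries, SD), a log2 fold change of 0.056 with a 95% interval of -0.017 to 0.13. Smad2 had the smallest p of the role, with a log2 fold change of 0.080 (95% interval -0.00040 to 0.16, unadjusted p 0.051, edgeR adjusted p 0.373). Smad1 and Smad5, which carry BMP signals, had log2 fold changes of 0.014 and 0.021, with 95% intervals of -0.089 to 0.12 and -0.068 to 0.11.

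The inhibitory SMADs, Smad6 and Smad7, are themselves induced by the pathway they restrain. Smad6 averaged 4.379 against 4.002 FPKM (log2 fold change 0.12, 95% interval -0.046 to 0.29) and Smad7 averaged 2.71 against 2.83 FPKM (-0.070, -0.27 to 0.13). Smad9 had 4 to 25 counts, at or under the floor in 2 of 6 libraries, and its interval ran from -1.42 to 1.49. For the 7 other SMAD genes, the interval of the log2 fold change stayed within 0.29 of 0 in either direction.

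Of the 5 SMAD regulators, Skil differed. It codes for SnoN, which binds SMAD2, SMAD3 and SMAD4 and represses their targets, and it is also a rapid target gene of TGF-β. Skil was at 13.49, 13.21 and 11.996 FPKM in the Hnf3a libraries and at 14.5, 15.2 and 14.2 FPKM in the pcDNA libraries, with no overlap. On the log2 scale the difference was -0.19 ± 0.045 (SE), a fall of 12.3% (edgeR adjusted p 0.037). Without Hnf3a replicates 2 or 3 in turn the adjusted p was 0.136 and 0.092, and without pcDNA replicates 1, 2 or 3 it was 0.147, 0.233 and 0.0836. Skil maps to chromosome 3 (31095058 to 31122573, plus strand).

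Ski, the paralogue of Skil, leaned the other way. It was at 11.6, 11.3 and 11.1 FPKM in the Hnf3a libraries and at 10.6, 10.5 and 10.8 FPKM in the pcDNA libraries, a log2 fold change of 0.089 that did not pass the threshold (unadjusted p 0.0339, edgeR adjusted p 0.307). The ratio of Skil to Ski FPKM was 1.17, 1.16 and 1.08 in the Hnf3a group and 1.37, 1.45 and 1.32 in the pcDNA group. Smurf1, a ubiquitin ligase that removes SMADs and receptors, was the most abundant regulator, at 25.9, 25.8 and 25.3 FPKM against 26.3, 26.5 and 25.8 FPKM. Its log2 fold change was -0.037 (95% interval -0.10 to 0.030). Smurf2 and the corepressor Tgif1 had log2 fold changes of -0.032 and -0.0045, with edgeR adjusted p of 0.784 and 0.985.

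The target genes held 3 of the 7 differences, and these did not share a direction. Id proteins lack a DNA-binding domain and block other helix-loop-helix factors, and Id1, Id2 and Id3 are known for rapid induction by BMP. Id3 was at 45.61, 46.96 and 47.61 FPKM in the Hnf3a libraries and at 53.9, 54.9 and 54.7 FPKM in the pcDNA libraries. The groups were well apart, and the log2 fold change was -0.23 ± 0.033 (SE), a fall of 14.7% (edgeR adjusted p 0.00127). The Id3 call held in 16 of 16 alternatives, with an adjusted p of at most 0.0218. Id3 maps to chromosome 4 (136143497 to 136145392, plus strand).

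Id2 was at 31.9, 32.3 and 32.2 FPKM in the Hnf3a libraries and at 30.1, 28.0 and 27.9 FPKM in the pcDNA libraries. All 3 Hnf3a libraries were higher than all pcDNA libraries, and the log2 fold change was 0.16 ± 0.040 (SE), a rise of 11.6% (edgeR adjusted p 0.0476). The adjusted p was 0.0726, 0.175 and 0.0896 without Hnf3a replicates 1, 2 or 3, and 0.218 and 0.194 without pcDNA replicates 2 or 3. Id2 maps to chromosome 12 (25093799 to 25097140, minus strand). Within a library, Id2 stood at 0.700, 0.689 and 0.677 of the Id3 FPKM in the Hnf3a group and at 0.558, 0.511 and 0.510 in the pcDNA group. This ratio was chosen after the values had been seen and is a description, as are the other ratios given here.

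Id1, the most abundant of the family, was at 176.7 ± 6.13 FPKM (3 libraries, SD) against 168.6 ± 7.27 FPKM (3 libraries, SD), a log2 fold change of 0.060 (95% interval -0.023 to 0.14, edgeR adjusted p 0.575). Its ratio to Id3 was 3.79, 3.69 and 3.86 in the Hnf3a libraries against 3.17, 2.93 and 3.19 in those with pcDNA. Id4 was low, at 0.596 against 0.481 FPKM on average, with a log2 fold change of 0.30 (edgeR adjusted p 0.505). Exons of A330033J07Rik and Gm49291 overlap Id4 on the other strand.

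**Figure D3:**
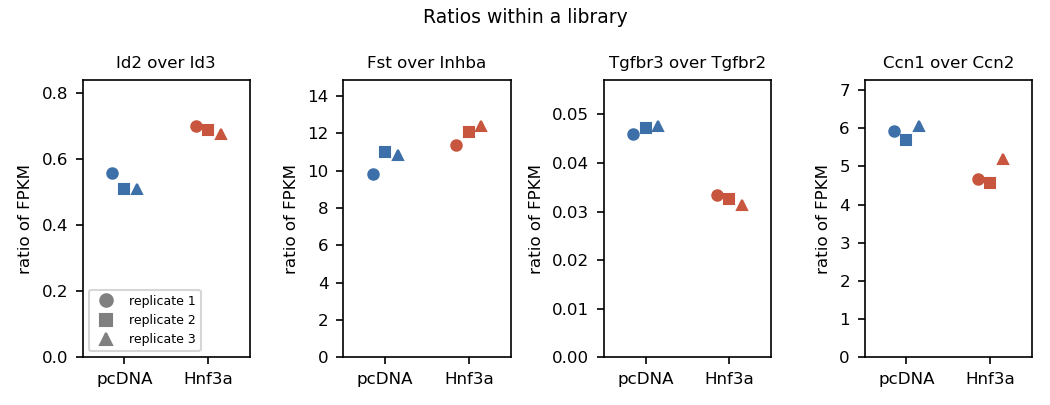
Ratio of the FPKM of 2 genes within each library (y axis, from 0), with replicate numbers as symbols. The Hnf3a libraries lie above the pcDNA libraries for Id2 over Id3 (0.677 to 0.700 against 0.510 to 0.558) and Fst over Inhba, and below them for Tgfbr3 over Tgfbr2 and Ccn1 over Ccn2.

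Ccn1 and Ccn2 code for matricellular proteins, and Ccn2 (connective tissue growth factor) is a classical fibrosis gene induced by TGF-β. Ccn1 was the most abundant of all members, at 376, 363 and 342 FPKM in the Hnf3a libraries and at 407, 396 and 388 FPKM in the pcDNA libraries, with no overlap. Its log2 fold change was -0.15 ± 0.035 (SE), so that it fell by 9.77% (edgeR adjusted p 0.036). Without Hnf3a replicates 2 or 3 the adjusted p was 0.175 and 0.0848, and without pcDNA replicates 1, 2 or 3 it was 0.224, 0.179 and 0.0923. Ccn1 maps to chromosome 3 (145646976 to 145649981, minus strand).

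Ccn2 was at 80.6, 79.7 and 65.7 FPKM in the Hnf3a libraries and at 68.7, 69.7 and 64.2 FPKM in the pcDNA libraries. Hnf3a replicates 1 and 2 were above the pcDNA range, and Hnf3a replicate 3 was inside it. The log2 fold change was 0.15 (95% interval -0.047 to 0.35, edgeR adjusted p 0.526), and without Hnf3a replicate 3 it was 0.24 with an adjusted p of 0.00518. The ratio of Ccn1 to Ccn2 FPKM was 4.66, 4.56 and 5.20 in the Hnf3a libraries against 5.93, 5.68 and 6.05 in those with pcDNA. The groups did not overlap by this measure, but they did not overlap for Ccn1 alone either.

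Fn1 codes for fibronectin, a matrix protein that the study assayed in fibrosis. It was at 104, 95.9 and 80.7 FPKM in the Hnf3a libraries and at 85.7, 85.2 and 87.0 FPKM in the pcDNA libraries. Hnf3a replicates 1 and 2 were above the pcDNA libraries and Hnf3a replicate 3 was below them. The log2 fold change of 0.11 (95% interval -0.15 to 0.38) did not pass the threshold (edgeR adjusted p 0.747), and without Hnf3a replicate 3 it was 0.21 with an adjusted p of 0.0048. The fibroblast markers were high in Hnf3a replicates 2 and 3 and low in Hnf3a replicate 1, and their part in the Fn1 values was not tested. Without Hnf3a replicates 2 and 3, which left 1 Hnf3a library, the log2 fold change of Fn1 was 0.28. Fn1 passed the threshold in 2 of 16 alternatives, both of them without Hnf3a replicate 3. Over the 16 alternatives its log2 fold change ran from 0.026 to 0.28.

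Tgfbi, named for its induction by TGF-β, had the largest log2 fold change of the members but sat close to the floor. Its counts were 24, 49 and 55 in the Hnf3a group and 16, 14 and 29 in the pcDNA group, and the groups overlapped through Hnf3a replicate 1. The fitted log2 difference was 1.03 ± 0.45 (SE, unadjusted p 0.0394, edgeR adjusted p 0.329). Its higher libraries, Hnf3a replicates 2 and 3, were those with fibroblast and macrophage markers, whose part in the value was not tested.

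**Figure D4:**
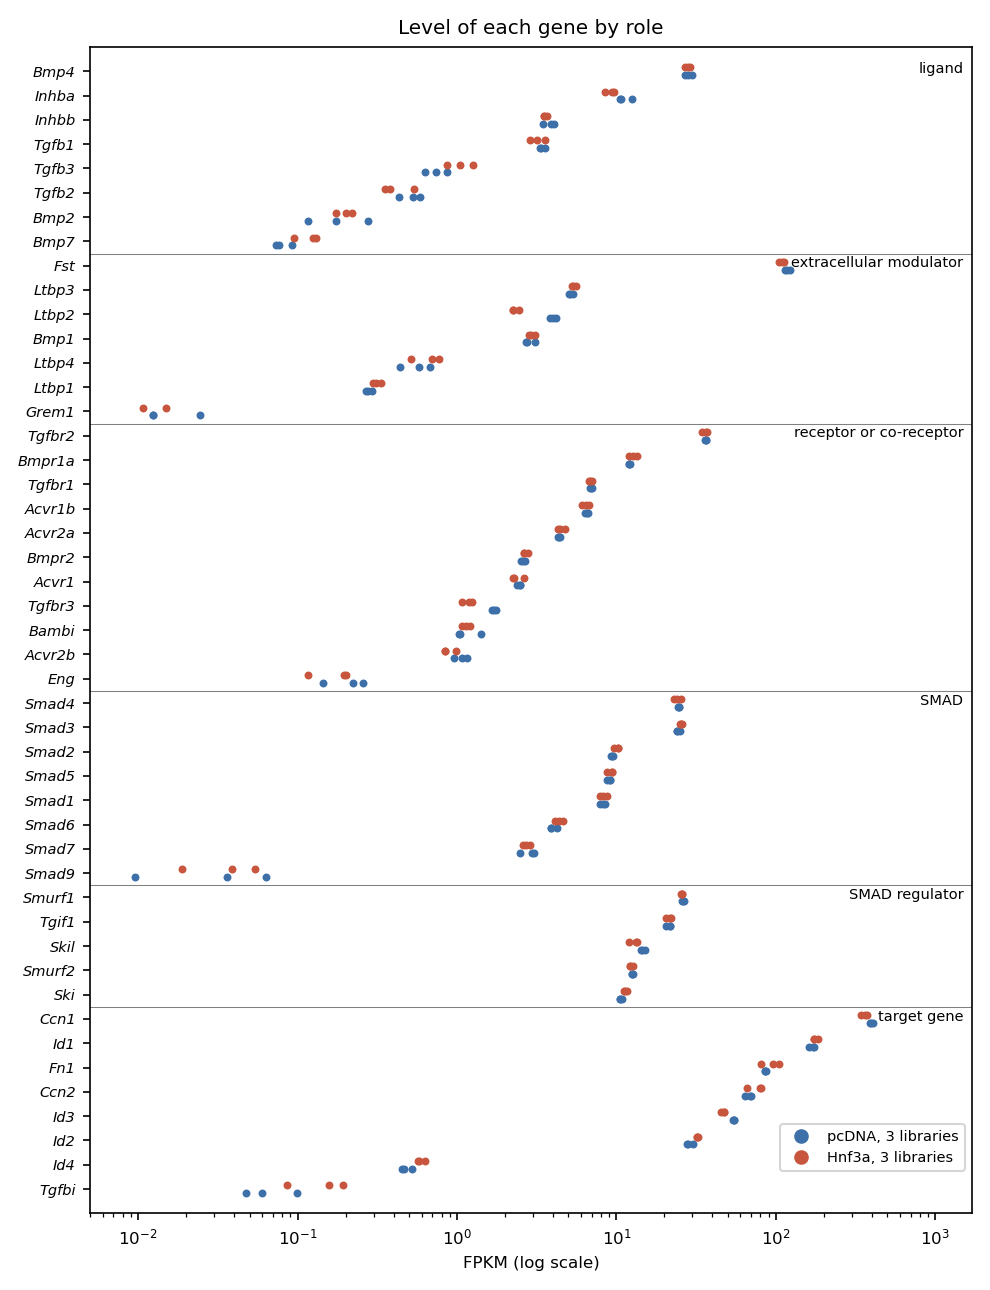
FPKM (x axis, log scale) of the 47 members in each library, ordered within each role by the pcDNA mean, with pcDNA libraries in blue and Hnf3a libraries in red; a library at 0 FPKM is not drawn. The range runs from Grem1, at most 7 counts, to Ccn1, and 36 of the 47 members had a pcDNA mean of at least 1 FPKM.

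By RNA level, every role held genes at 1 FPKM or more in the pcDNA group. A pcDNA mean of at least 1 FPKM was reached by 4 of 8 ligands, 4 of 7 modulators, 10 of 11 receptors, 7 of 8 SMADs, 5 of 5 regulators and 6 of 8 target genes. Among the receptors, the order by pcDNA mean was Tgfbr2 (36.4 FPKM), Bmpr1a (12.01), Tgfbr1 (6.92), Acvr1b (6.52), Acvr2a (4.36), Bmpr2 (2.59), Acvr1 (2.46), Tgfbr3 (1.71), Bambi (1.17), Acvr2b (1.07) and Eng (0.208). Bambi and Acvr2b were the only neighbours in this order whose pcDNA libraries overlapped.

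The wider pathway was represented by 90 other genes, of which 85 were in the table and 71 were tested. At an adjusted p under 0.05, 4 of the 71 differed (5.63%, beside 3.17% of all genes), 2 higher (1.04% of all genes) and 2 lower (2.13% of all genes). Of 17 tested extracellular modulators, Thbs1 was higher, and of 26 tested target genes, Il11 was higher and Edn1 and Hey1 were lower. None of the 8 other ligands, 4 other receptors and 16 other SMAD regulators passed. The median log2 fold change of the 71 was 0.051.

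Edn1 codes for endothelin-1, a vasoconstrictor peptide whose gene is a SMAD and AP-1 target. It was at 22.2, 23.9 and 23.0 FPKM in the Hnf3a libraries and at 36.1, 35.6 and 32.4 FPKM in the pcDNA libraries, far apart. This gave a log2 fold change of -0.60 ± 0.048 (SE, edgeR adjusted p 5.79e-06), and the call held in 16 of 16 alternatives. Exons of Gm47118 overlap it on the other strand. Hey1, a repressor induced by Notch and BMP, was at 0.681, 0.624 and 0.627 FPKM against 1.22, 0.986 and 0.997 FPKM, a log2 fold change of -0.73 (edgeR adjusted p 0.0196). Its adjusted p lay between 0.0518 and 0.121 without any 1 library other than Hnf3a replicate 1.

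Thbs1 codes for thrombospondin 1, which can activate latent TGF-β. It was at 39.7, 38.3 and 33.9 FPKM in the Hnf3a libraries and at 32.1, 30.4 and 32.5 FPKM in the pcDNA libraries, with Hnf3a replicate 3 the lowest of its group, as for Ccn2 and Fn1. On the log2 scale the difference was 0.23 ± 0.053 (SE, edgeR adjusted p 0.0413), and the adjusted p lay between 0.075 and 0.19 without any 1 library other than Hnf3a replicate 3. Exons of Gm29233 overlap Thbs1 on the other strand. Il11, a cytokine that TGF-β induces in fibroblasts, was at 0.948, 1.32 and 0.831 FPKM against 0.629, 0.421 and 0.493 FPKM. The fitted log2 difference was 0.99 ± 0.24 (SE, edgeR adjusted p 0.0369), and the adjusted p lay between 0.0538 and 0.217 without any 1 library other than Hnf3a replicate 3.

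Col1a1, Col3a1 and Pmepa1 were chosen after their values had been seen. Fibrillar collagens were high in Hnf3a replicates 2 and 3, the libraries with fibroblast markers. Col1a1 and Col3a1 were themselves on the fibroblast marker list, so this is the same observation and not a separate one. The part of fibroblast transcripts in these values was not tested. Col1a1 had 33, 2694 and 3099 counts in the Hnf3a libraries against 0, 16 and 5 in the pcDNA libraries (edgeR adjusted p 0.273), and Col3a1 had 7, 935 and 1240 against 4, 11 and 0 (adjusted p 0.313). The fit without Hnf3a replicate 1 kept only the pair of Hnf3a libraries with fibroblast and macrophage markers. In that fit, 10 of 76 other pathway genes passed the threshold, 8 of them higher. The other pathway list held Col1a1, Col1a2, Col3a1, Dcn, Postn and Acta2, which were also fibroblast markers. Calls of these genes in that fit were not independent of the choice of libraries. In the same fit 643 of all 18556 genes passed, 253 of them higher. For Pmepa1, a feedback inhibitor induced by TGF-β, the log2 fold change was 0.069 (edgeR adjusted p 0.56).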

How the data were processed

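RNA was measured in 6 TKPTS libraries, 3 per group, with groups and replicate numbers taken from the labels. The submitters' processing notes name cutadapt 1.9, HISAT2 2.0.4, UMI-tools and StringTie 1.3.4d and the build mm10; settings, annotation and use of strand are not given in the sources used here. The authors deposited an estimated count per gene and library, in whole numbers. The authors also deposited an FPKM value for each gene and library. In every library more genes had 4 counts than 3 or 5, so 1 fragment was taken as up to 4 counts and the detection floor as 12 counts (0.169 to 0.198 CPM); floors cover counting error only. Of 29514 genes shared with GENCODE release M21 by identifier, 26766 had the same start and end.

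Genes were filtered with filterByExpr, scaled by TMM and tested two-sided with edgeR 4.0.16 (glmQLFit, robust; glmQLFTest; R 4.3.3), without covariates, and p-values were adjusted over all genes tested. The standard error was |log2 fold change|/√F, and 95% intervals used the model's degrees of freedom. An exact permutation test of 3 against 3 libraries cannot go below 0.1, so none was used. Alternatives used limma 3.58.1, DESeq2 1.42.0, other scalings, filters and subsets of libraries. The procedure was tested on simulated data. No 2 libraries had identical values. Values per library were given for members with an adjusted or unadjusted p under 0.05, the most abundant member of each role, Tgfb1, Ccn2 and Fn1, and any member with 1 group wholly at or under the floor and the other above it (none met this), and for other pathway genes with an adjusted p under 0.05. The members and lists were chosen with earlier results of these data known. Fibroblast, macrophage, epithelial, proximal tubule and endothelial markers were summed. Endothelial markers summed to 2.10 to 2.92 FPKM. The result for 1 gene of the wider pathway is not reported here.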

Additional observations from a re-analysis of the deposited data

How the results depend on the processing

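As reported, 7 members, 4 other pathway genes and 565 genes in all passed the threshold. Limma on log2(FPKM + 0.1) gave 2, 1 and 236, and limma on log2(FPKM + 1) gave 3, 1 and 231. The DESeq2 Wald test gave 8, 12 and 824, and 10 of the 12 other pathway genes were higher. Without Hnf3a replicates 2 and 3, where the lone Hnf3a library was assumed to vary like the pcDNA libraries, 4 members and 322 genes passed. Leaving out 1 library at a time gave 3 to 6 members, 1 to 10 other pathway genes and 263 to 643 genes. These fits used fewer samples, and what caused the remaining differences was not tested. Foxa1 kept its call in all 16 alternatives (log2 fold change 4.84 to 5.11).

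The values showed no sign that the replicate numbers pair the libraries: the correlations of same-numbered deviations were -0.041, -0.010 and 0.010, and 1 of 6 libraries correlated best with its own number. Such values cannot show whether same-numbered libraries were handled together. With the replicate block, 6 members, 3 other pathway genes and 463 genes passed, and Id2, Thbs1 and Il11 did not.

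Over the 46 tested members and 16 alternatives, 722 values were obtained: 681 kept their side of the threshold, 36 lost it, 5 gained it and 0 calls reversed. Ltbp2 and Id3 passed in all 16. Low counts limit the precision for Smad9, whose 95% interval ran from -1.42 to 1.49.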
